A study of Homo sapiens with 3 samples.

Results

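The 6 sirtuins SIRT1, SIRT2, SIRT3, SIRT5, SIRT6 and SIRT7, the NAD synthesis enzymes NAMPT, NAPRT and NMNAT1, and the NAD kinase NADK were described in MCF10A, a human breast epithelial line that is immortalized but does not form tumours. These 10 genes were chosen by symbol and were all found, by Ensembl identifier through GENCODE release 44, among the 62754 genes of the deposited table. The cells carried the empty Retro-X Tet-One vector, a retroviral doxycycline-inducible system with no insert, were selected with puromycin and received no doxycycline or other treatment. RNA was taken at a single time in exponential growth from 3 replicates of this 1 condition, all with the same vector. No group without it and no second condition were available for comparison. The labels number the replicates, name no batch and do not say whether the replicates were separate cultures. Every spread below is therefore that between these 3 libraries and may be technical.

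NAD is both the electron carrier of central metabolism and a substrate that is used up. Sirtuins remove acetyl and other acyl groups from proteins and cleave NAD in doing so, which releases nicotinamide. NAMPT returns nicotinamide to the pool as nicotinamide mononucleotide (NMN), and NAPRT starts the parallel Preiss-Handler route from nicotinic acid. NMNAT1 takes the next step of both routes in the nucleus, which completes only the route from nicotinamide. NADK phosphorylates NAD to NADP. SIRT1, SIRT6 and SIRT7 are mainly nuclear, SIRT2 is mainly cytosolic, and SIRT3 and SIRT5 are mitochondrial.

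Levels are given in TPM, the reads of a gene divided by its length and scaled to a common total per library, so that genes can be compared per length. The values returned whole reads, between 11166546 and 15446347 per library, and the 10 genes held from 126 reads (SIRT3, replicate 3) to 1511 reads (NAMPT, replicate 1). Replicate 3 stood apart. Its RN7SL1 level, a short non-coding RNA, was 150632 TPM against 49293 and 56610 TPM in replicates 1 and 2, and among 8802 genes averaging 10 TPM or more its median log2 ratio to replicate 1 was -0.25. The markers of basal breast epithelium were present, 6 of 6 at or above 1 TPM and led by KRT5 at 6612 ± 889.9 TPM (SD, n = 3), as were 4 of 4 general epithelial markers. The hormone receptors ESR1 and PGR had at most 3 reads in any library. Of 7 markers of other cell types, DCN, COL1A1 and PECAM1 were at 9.05, 4.96 and 1.77 TPM, and PTPRC, CD3E, VWF and COL1A2 had at most 3 reads in any library. The 7 summed to between 15.3 and 16.4 TPM per library, and their part in the levels below was not tested.

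All 10 genes were above 1 TPM, the cutoff by which the study called enzymes expressed, in every replicate. By the mean of the replicates, 56.7% of 20046 protein-coding genes and 24.9% of all genes were at or above this cutoff, and 55.2% and 21.5% were so in every replicate. The means ran from 5.74 TPM for SIRT5 to 79.0 TPM for NAPRT, with a median of 19.4 TPM, against 24.9 TPM over the 11360 protein-coding genes at or above the cutoff. The order was NAPRT, NADK, NAMPT, SIRT6, SIRT1, SIRT2, SIRT7, SIRT3, NMNAT1 and SIRT5. NAPRT, NADK and NAMPT led in this order in each replicate, and SIRT3, NMNAT1 and SIRT5 closed it in each. Of the 9 neighbouring pairs, 7 differed by more than the larger SD of log2(TPM + 1) and with the same sign in all replicates. The exceptions were SIRT6 with SIRT1 and SIRT2 with SIRT7, both of which changed places in replicate 3. For the neighbours under the canonical and merged exon lengths introduced below, the count was 5 and 6 instead of 7. With canonical lengths SIRT5 was at 6.30 TPM and NMNAT1 at 6.07 TPM, a pair that did not differ beyond its spread. With 3 paired values an exact sign-flip test cannot go below p = 0.25 (two-sided), so these orders are given as a description, with no p.

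**Figure D1:**
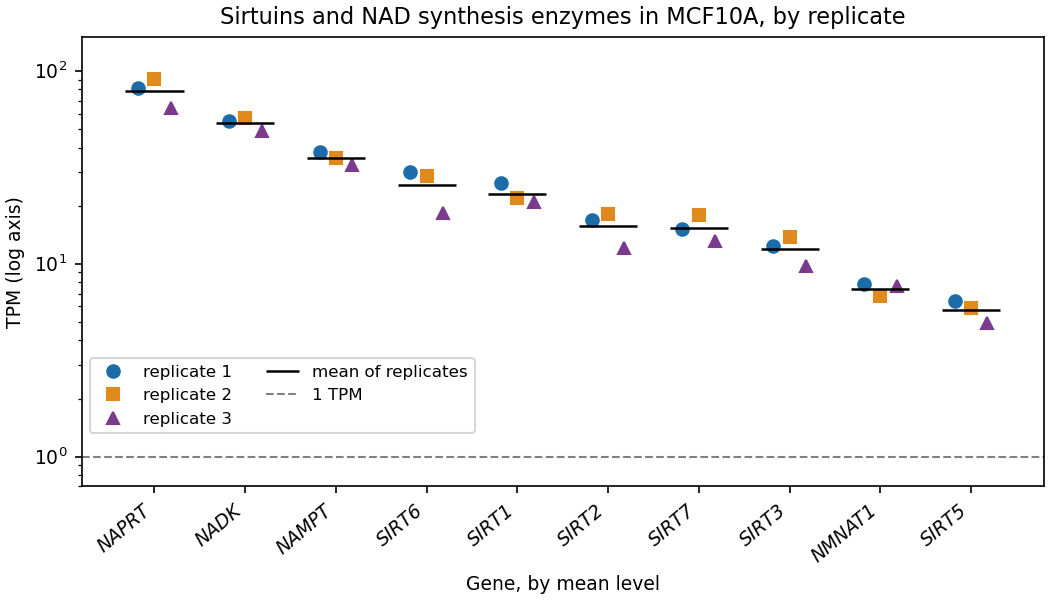
TPM on a log axis for the 10 genes in order of their mean, with a symbol for each of the 3 replicates, a bar for their mean and a dashed line at 1 TPM. All values lie above the line, from 4.94 TPM for SIRT5 to 91.1 TPM for NAPRT, and replicate 3 is the lowest for 9 of the 10 genes.

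The precursor-specific enzymes of both NAD routes were expressed, and the nicotinic acid enzyme was the higher as deposited. NAPRT (ENSG00000147813, chromosome 8 of hg38 from 143574785 to 143578649) was measured at 81.6, 91.1 and 64.2 TPM in replicates 1, 2 and 3, a mean of 79.0 ± 13.7 TPM (SD, n = 3) that lay above 81.8% of the expressed protein-coding genes. Replicate 2 was the highest and replicate 3 the lowest. NAMPT (ENSG00000105835, chromosome 7 from 106248298 to 106285966), the rate-limiting enzyme of salvage from nicotinamide, was measured at 38.002, 35.3 and 32.6 TPM, with a mean of 35.3 ± 2.70 TPM (SD, n = 3). Its values did not overlap with those of NAPRT. The log2 ratio of NAMPT to NAPRT was -1.10, -1.37 and -0.98 in replicates 1, 2 and 3, which put NAPRT 2.22-fold higher on average. This size rests on the length by which the reads were divided, as given below.

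NMNAT1 (ENSG00000173614, chromosome 1 from 9943428 to 9985501), which joins NMN or its nicotinic acid counterpart to ATP, was the lowest of the 4 enzymes at 7.84, 6.78 and 7.65 TPM, a mean of 7.42 ± 0.564 TPM (SD, n = 3). NAMPT was 4.75-fold higher than NMNAT1, with log2 ratios of 2.28, 2.38 and 2.09, a fold that was 8.24 with the canonical and 1.88 with the merged exon lengths introduced below. NADK (ENSG00000008130, chromosome 1 from 1751232 to 1780457), the cytosolic NAD kinase, was measured at 54.95, 56.9 and 48.6 TPM, a mean of 53.5 ± 4.33 TPM (SD, n = 3). It was above its mitochondrial counterpart NADK2, at 32.5, 25.2 and 28.5 TPM, in every replicate, by 0.90 ± 0.24 on the log2 scale (SD, n = 3).

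Of the nuclear sirtuins, SIRT6 and SIRT1 were close to each other and SIRT7 was lower as deposited, an order that turned with the canonical transcript length given below. SIRT1 (ENSG00000096717, chromosome 10 from 67884656 to 67918390), a deacetylase of histones and transcription factors, was measured at 26.3, 22.0 and 21.0 TPM, a mean of 23.1 ± 2.81 TPM (SD, n = 3). SIRT6 (ENSG00000077463, chromosome 19 from 4174109 to 4182566), which acts on histone H3 in chromatin and DNA repair, was measured at 29.9, 28.4 and 18.2 TPM, a mean of 25.5 ± 6.37 TPM (SD, n = 3). It was above SIRT1 in replicates 1 and 2 and below it in replicate 3, with a log2 ratio of 0.12 ± 0.29 (SD, n = 3), so the pair did not differ beyond its spread as deposited. SIRT7 (ENSG00000187531, chromosome 17 from 81911939 to 81921323), a nucleolar sirtuin linked to ribosomal RNA transcription, was measured at 15.2, 17.8 and 13.2 TPM, a mean of 15.4 ± 2.33 TPM (SD, n = 3).

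SIRT2 (ENSG00000068903, chromosome 19 from 38878555 to 38899862), a tubulin deacetylase, was measured at 16.9, 18.1 and 12.02 TPM, a mean of 15.7 ± 3.23 TPM (SD, n = 3), and SIRT7 and SIRT2 could not be ordered as deposited. The mitochondrial sirtuins were the lowest of the family. SIRT3 (ENSG00000142082, chromosome 11 from 215030 to 236931), the main deacetylase of mitochondria, was measured at 12.4, 13.7 and 9.77 TPM, a mean of 11.97 ± 2.02 TPM (SD, n = 3). SIRT5 (ENSG00000124523, chromosome 6 from 13574227 to 13615158), which removes succinyl and malonyl groups, was measured at 6.37, 5.90 and 4.94 TPM, a mean of 5.74 ± 0.727 TPM (SD, n = 3). SIRT3 was above SIRT5 in every replicate, 2.08-fold on average, or 1.54- and 1.98-fold with the canonical and merged exon lengths introduced below. The remaining sirtuin, the mitochondrial SIRT4, had 0, 0 and 5 reads, which made 0.919 TPM in replicate 3, while 0 reads allow up to 0.469 and 0.457 TPM in replicates 1 and 2 by a limit of 3 reads. Over all 7 sirtuins, the mitochondrial members held 17.5%, 18.5% and 19.6% of the summed 107, 106 and 80.0 TPM. RNA was pooled over the cells of a library, so fewer expressing cells and less RNA per cell cannot be told apart for any of these genes.

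Some of these genes start next to a gene on the opposite strand. For the 3 protein-coding pairs that do not overlap, the bases between the outermost annotated starts of both genes are shown. The sequences come from RefSeq on GRCh38.p14, whose promoter windows of 300 bases were matched for 8 of the 10 genes, and are written 5′ to 3′ on the strand of the sirtuin or NMNAT1. Capitals mark matches, on either strand, to the GC box (GGGCGG), to the NRF1 motif, to ETS (CCGGAAG) and to the CCAAT box (CCAAT), where neighbouring GC boxes may overlap. Only matches that lie wholly within the bases shown are marked. An ETS match runs across the first bases of the SIRT3 and of the NMNAT1 stretch and is left unmarked.
SIRT6 and ANKRD24, chr19:4182567-4182688: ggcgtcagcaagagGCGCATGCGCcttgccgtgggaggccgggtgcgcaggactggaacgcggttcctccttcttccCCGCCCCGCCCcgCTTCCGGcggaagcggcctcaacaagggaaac
SIRT3 and PSMD13, chr11:236932-236965: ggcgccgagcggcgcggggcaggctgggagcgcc
NMNAT1 and LZIC, chr1:9943408-9943427: tccggccccctggaaCCAAT
The levels on both sides were unequal in all 3 pairs. PSMD13, a proteasome subunit, was at 167, 157 and 162 TPM, which is 13.5-, 11.4- and 16.6-fold above SIRT3. The 34 bases between these genes run from the outermost annotated start of SIRT3, which lies 589 bases from the start of its canonical transcript. LZIC was 4.31-, 4.53- and 3.76-fold above NMNAT1. In the third pair the sirtuin was the higher, and ANKRD24 had 6, 5 and 3 reads, or 0.284, 0.231 and 0.167 TPM. SIRT2 overlaps NFKBIB head to head by 163 bases, and NFKBIB was above it at 24.9, 24.2 and 19.3 TPM.

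The 250 bases before the start of SIRT1 are shown because they hold a pair of E-boxes (CACGTG), the core motif of MYC and of the circadian CLOCK proteins, in capitals.
SIRT1, chr10:67884406-67884655, plus strand: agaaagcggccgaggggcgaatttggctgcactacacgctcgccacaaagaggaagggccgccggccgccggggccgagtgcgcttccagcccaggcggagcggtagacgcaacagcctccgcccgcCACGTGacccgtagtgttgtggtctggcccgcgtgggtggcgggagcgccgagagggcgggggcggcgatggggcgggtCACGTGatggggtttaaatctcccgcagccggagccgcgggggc
An E-box was found in the windows of 2 of the 8 genes, SIRT1 and NADK, and in 7.26% of 35116 promoter windows. The windows of NADK and SIRT3 belong to starts that lie 346 and 589 bases from the start of the canonical transcript. The GC box was found in 7 of 8, against 45.0% of all windows, and the TATA box (TATAAA) in 0 of 8, against 11.5%. The 8 windows had a median GC content of 71.0%, against 58.7% over all windows. A match to these letters is a description of the window and not a site of binding.

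The order of levels depended on the gene length used. The deposited TPM divide by the longest annotated transcript, and for 4 of the 10 genes, NAMPT, SIRT2, SIRT5 and SIRT7, that transcript is annotated as a retained intron, which is the case for 14.9% of the expressed protein-coding genes. It is 2.54 times as long as the canonical transcript for SIRT2, 1.997 times for SIRT7 and 1.73 times for NAMPT. With the reads divided by the length of the canonical transcript instead, NAMPT was at 49.9 TPM and NADK at 49.2 TPM, a pair that no longer differed beyond its spread, and NAPRT at 71.6 TPM was 1.42-fold above NAMPT. SIRT2 was the highest sirtuin at 32.5 TPM, above SIRT1 at 18.8 TPM in every replicate, where the deposited values had it below SIRT1 in every replicate. SIRT2 was then also above SIRT7 beyond the spread, by 0.35 on the log2 scale and in 3 of 3 replicates. SIRT7 at 25.1 TPM lay above SIRT6 at 20.7 TPM in 3 of 3 replicates, though not beyond the spread, and above the mean of SIRT1. In all, 8 of the 10 genes changed their rank. After the change of lengths each library was scaled back to its former total, which leaves ratios and order within a library as they are. Levels therefore also moved for genes whose longest transcript is the canonical one, such as SIRT1, from 23.1 to 18.8 TPM.

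With the length of all annotated exons merged, an alternative added after the data were seen, NAMPT was at 15.1 TPM, below SIRT1 at 27.7 TPM and SIRT6 at 19.8 TPM. Its 49 annotated transcripts cover 23584 bases against 4360 in the canonical transcript. SIRT1 was then above SIRT6 beyond the spread, by 0.49 on the log2 scale and in 3 of 3 replicates. NAPRT was the highest under all 3 lengths. SIRT4 was the lowest sirtuin, at a mean of 0.306 TPM as deposited, 0.254 TPM with canonical and 0.393 TPM with merged lengths. Of the sirtuins other than SIRT4, SIRT3 and SIRT5 were the lowest 2 under each of these lengths. The mitochondrial share of the summed sirtuin TPM was 18.5 ± 1.00% as deposited, 14.5 ± 0.741% with canonical and 14.7 ± 1.09% with merged lengths (SD, n = 3 each).

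**Figure D2:**
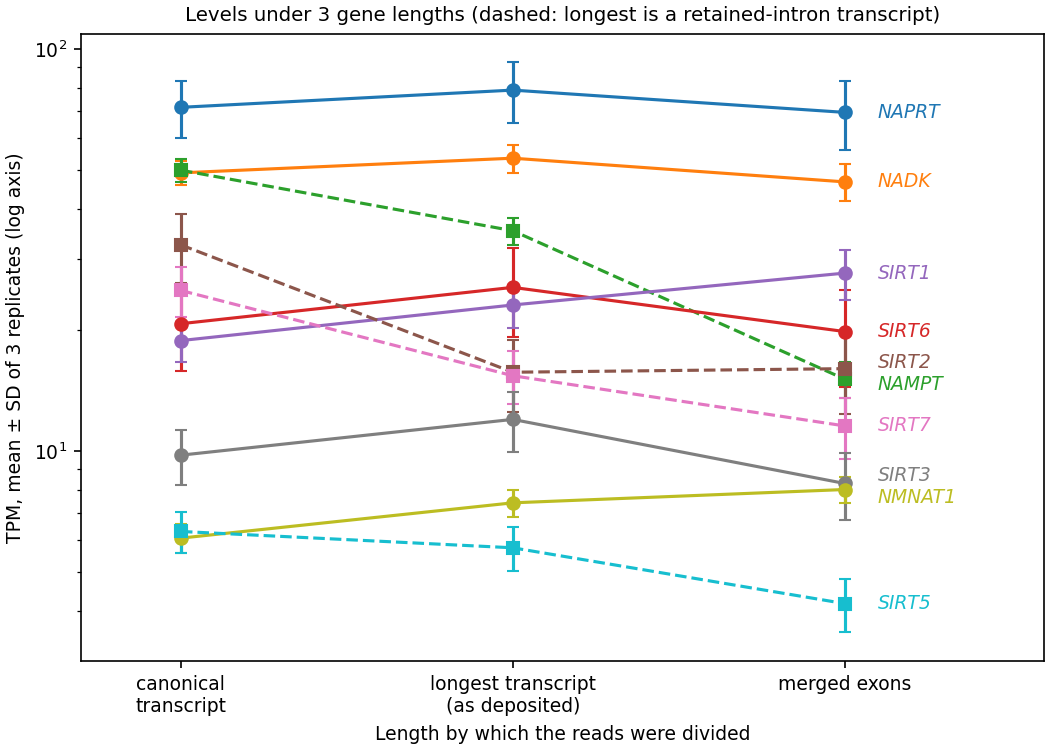
Mean TPM of the 10 genes on a log axis, with the SD of 3 replicates as error bars, after dividing the same reads by the canonical transcript, by the longest transcript as deposited, or by all exons merged. Each library was scaled back to the same total under each length, so a level also shifts with the lengths of all other genes. NAPRT stays at the top between 69.5 and 79.0 TPM, while NAMPT falls from 49.9 to 35.3 and 15.1 TPM and SIRT2 from 32.5 to 15.7 and 16.0 TPM. Squares with dashed lines mark genes whose longest transcript is annotated as a retained intron.

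Part of the NAMPT sequence is shared with a copy. Of its canonical transcript, 36.5% of all 50-base stretches occur unchanged in NAMPTP1 (chromosome 10 from 36521721 to 36524234), a processed pseudogene to which 27, 26 and 18 reads were assigned against 1511, 1441 and 1103 for NAMPT. The other 7 annotated pseudogenes of NAMPT and NMNAT1 had 0 reads. SIRT1, SIRT2, SIRT6, SIRT7 and NADK share no such stretch with another gene. For SIRT5, 23.2% and for NAPRT, 20.4% of the stretches also occur in other genes, mainly in non-coding genes on the opposite strand that held at most 17 reads in a library. For SIRT3 the share was 2.05%, and 2.91% of its canonical bases overlap the protein-coding RIC8A on the opposite strand. RIC8A held 2217, 2424 and 1442 reads, against 188, 214 and 126 for SIRT3. NMNAT1 shares 11.7% of its bases with a non-coding gene on the same strand, which had 0 reads in every library. How reads that fit more than 1 gene were treated is not given in the sources used here, and their part in these levels was not tested.

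Between replicates, the 10 genes varied by a coefficient of variation from 7.59% (NMNAT1) to 25.0% (SIRT6). Their reads alone give from 2.75% (NAMPT) to 8.49% (NMNAT1), and only NMNAT1 varied by less than its reads alone give. The median SD of log2(TPM + 1) was 0.18 over the 10 genes and 0.16 over the expressed protein-coding genes. Replicate 3 was the lowest for 9 of 10 genes, all but NMNAT1, as for 78.5% of the expressed protein-coding genes. Reads of 8 of the 10 genes departed from equal TPM by chi-square (Benjamini-Hochberg adjusted p below 0.05 over 15802 genes, of which 54.3% did so). Among protein-coding genes with as many reads as these, the share was 68.0%. The exceptions were SIRT5 (adjusted p = 0.11 by this chi-square test) and NMNAT1 (adjusted p = 0.508).

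To take out the shift shared by most genes of a library, the replicates were also scaled by the median of ratios. Reads of 5 genes then departed from equality, SIRT1, SIRT2, SIRT6, NAMPT and NAPRT, against 31.7% of all genes tested and 32.9% of the protein-coding genes with as many reads. This count rested on single libraries: it was 4 without replicate 1 (27.3% of all genes tested), 1 without replicate 2, which was SIRT6 (10.5%), and 1 without replicate 3, which was SIRT1 (22.1%). SIRT6 remained 0.30 below its mean in replicate 3 on the log2 scale (chi-square test, adjusted p = 0.0262), while NMNAT1 was 0.20 above its mean there. NADK, at -0.02, -0.01 and 0.03, was the steadiest of the 10. Without replicate 3, reads of only SIRT1 departed from equal TPM (chi-square test, adjusted p = 0.0235), against 21.3% of 14980 genes.

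**Figure D3:**
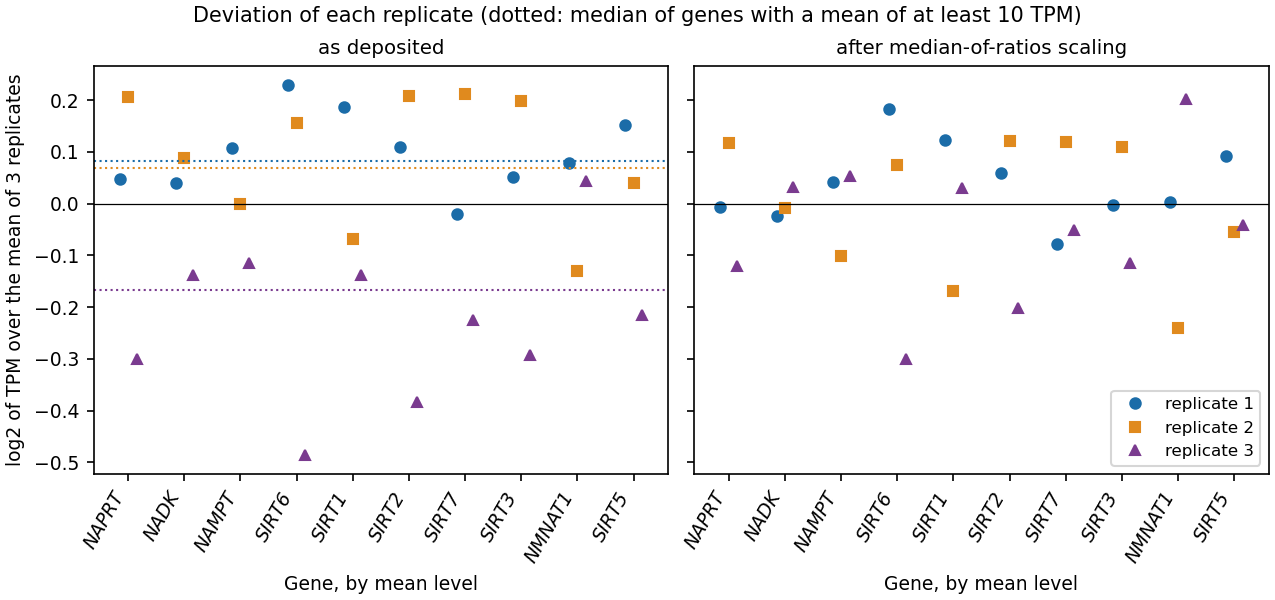
The log2 of each replicate's TPM over the mean of the 3 replicates, for the 10 genes as deposited (left) and after median-of-ratios scaling (right). Dotted lines in the left panel show the median over the 8802 genes averaging 10 TPM or more, which is -0.17 for replicate 3, and SIRT6 in replicate 3 lies lowest in both panels, at -0.49 and -0.30.

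Around these genes, 26 of 41 other genes of NAD metabolism were at or above 1 TPM by the mean, against 56.7% of all protein-coding genes. The routes from nicotinamide, nicotinic acid and nicotinamide riboside were covered by expressed genes, and the route from tryptophan was not. NADSYN1, the amidase that ends the Preiss-Handler route, was at 40.9, 49.2 and 34.6 TPM, 1.90-fold below NAPRT on average and below it in every replicate. This fold was 1.57 with canonical and 5.65 with merged exon lengths. NMRK1, the kinase of nicotinamide riboside, was at 15.3 ± 1.28 TPM (SD, n = 3), and PNP, a phosphorylase that acts on purine nucleosides and nicotinamide riboside, was the highest of its role at 95.4 ± 4.80 TPM (SD, n = 3), or 249.5 TPM with the canonical transcript length. NMNAT2, the Golgi and cytosolic isoenzyme of NMNAT1, was at 1.57, 1.56 and 1.97 TPM, and the mitochondrial NMNAT3 had 0, 3 and 0 reads. NMRK2 was without reads throughout, for which the limit in replicate 3 is 0.581 TPM.

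Of 9 genes of the tryptophan route, only KYNU and AFMID were at or above 1 TPM, at 19.9 ± 1.41 and 27.1 ± 1.51 TPM (SD, n = 3 each), the latter at 15.2 TPM with merged lengths. The entry enzymes TDO2 and IDO1 had 1 read each over all replicates and IDO2 had 0, and KMO had 8, 6 and 6 reads. HAAO and QPRT, the last steps to nicotinic acid mononucleotide, and ACMSD, which diverts from them, were also at 0 reads in all replicates, for which the limits in replicate 3 are 0.442, 0.304 and 0.347 TPM.

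All 4 genes of NADP formation in mitochondria, transhydrogenation and repair of damaged NADH were expressed, with means from 28.7 TPM for NADK2 to 48.6 TPM for NAXE, an epimerase of hydrated NADH. The longest transcript of NAXE is annotated as a retained intron, and its mean was 233 TPM with the canonical length. SLC25A51, the mitochondrial NAD carrier, was the highest transporter at 31.6, 28.3 and 22.3 TPM, and its close relative SLC25A52 had 0, 2 and 0 reads.

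Among the other users of NAD, 9 of 13 genes were at or above 1 TPM. PARP1, the main poly(ADP-ribose) polymerase of the DNA damage response, was the highest at 354, 340 and 288 TPM. It was 3.37-fold above the sum of all 7 sirtuins, with log2 ratios of 1.73, 1.68 and 1.85, and 3.69- and 1.68-fold above it with canonical and merged lengths. The NAD glycohydrolase CD38 had 0, 1 and 0 reads and SARM1 had 2, 4 and 3. BST1, a relative of CD38, was called differently between replicates at 0.765, 1.30 and 0.337 TPM from 8, 14 and 3 reads. NNMT, which methylates nicotinamide and so removes it from salvage, was at 272, 268 and 252 TPM, 7.49-fold above NAMPT on average. This ratio was 4.32-fold with canonical and 18.1-fold with merged lengths, and in each case NNMT was the higher in every replicate. NT5E, the surface nucleotidase CD73, was close to NNMT at 282, 259.7 and 238 TPM.

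**Figure D4:**
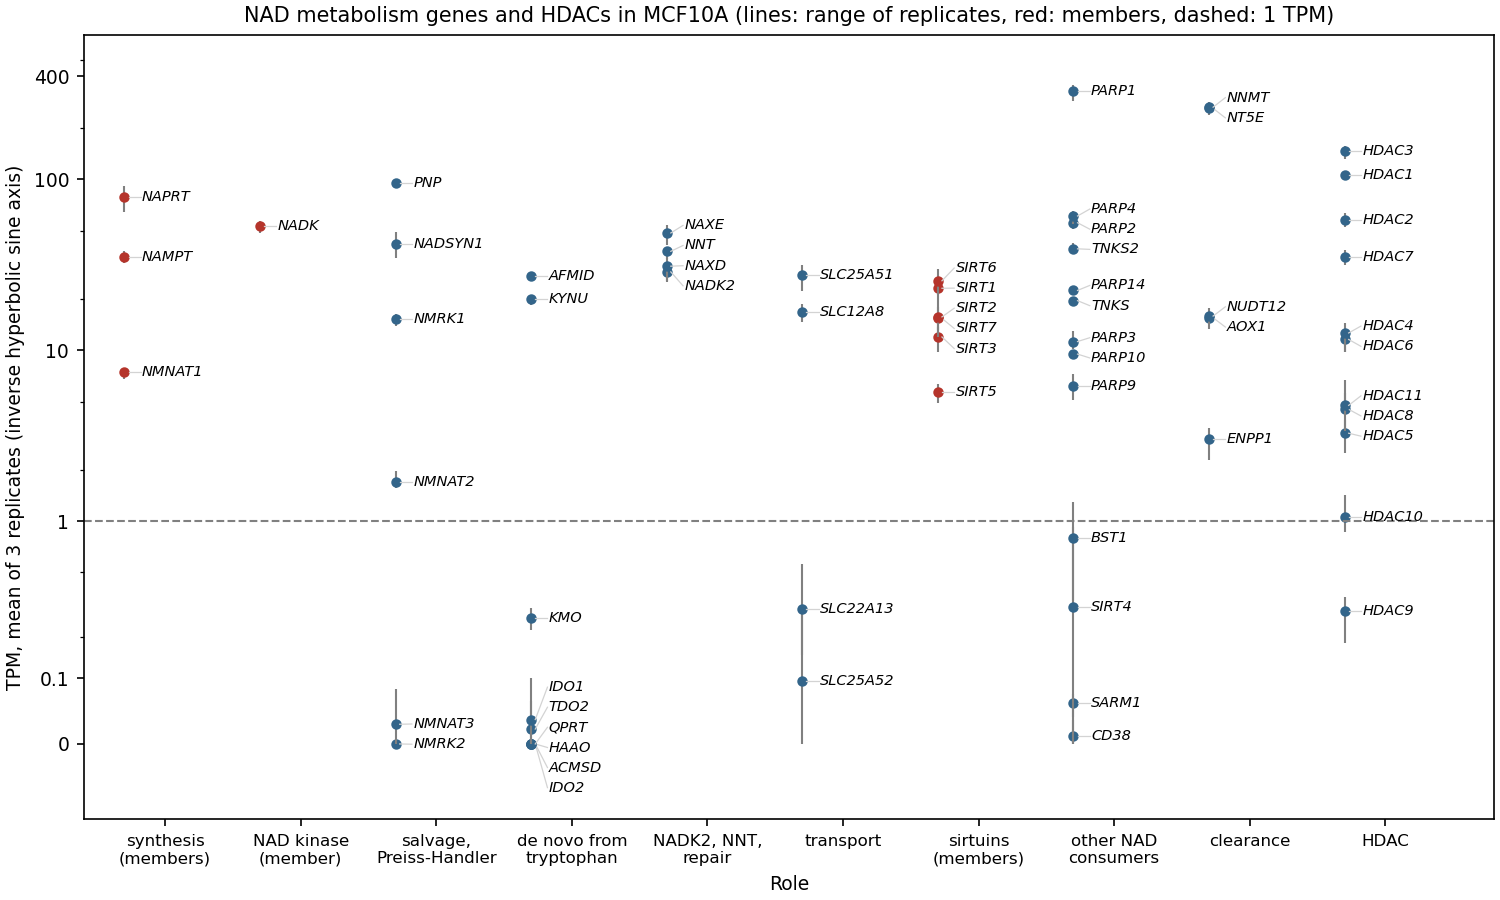
Mean TPM of the 10 genes (red) and of other NAD metabolism genes and zinc-dependent histone deacetylases (blue) by role, on an inverse hyperbolic sine axis that shows 0, with vertical lines for the range of 3 replicates and a dashed line at 1 TPM. Of the 9 tryptophan route genes 7 lie below the line, while PARP1 at 327 TPM and NNMT at 264 TPM lie highest.

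Of 14 partners and substrates of sirtuins, 10 were at or above 1 TPM. CCAR2, a protein inhibitor of SIRT1, was at 125, 121 and 95.7 TPM. PPARGC1A had 5, 2 and 2 reads. ACADL, a mitochondrial substrate of SIRT3 in fatty acid oxidation, was without reads throughout, with a limit of 0.200 TPM in replicate 3.
Of the 11 zinc-dependent histone deacetylases, the deacetylases that do not use NAD, 10 were at or above 1 TPM, with means from 0.292 TPM for HDAC9 to 147 TPM for HDAC3, which was at 82.9 TPM with merged lengths. As deposited, HDAC3, HDAC1 and HDAC2 each lay above every sirtuin in every replicate. HDAC10 was called differently between replicates at 0.880, 1.43 and 0.862 TPM, and same-strand genes overlap 86.1% of the bases in its canonical transcript.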

How the data were processed

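Ribosomal RNA-depleted libraries from 300 ng RNA of MCF10A cells were described by the TPM table of 3 samples that the authors deposited. The authors made these TPM values with Seq2science, and the submitters' processing notes name fastp, STAR, MultiQC, hg38 and GRCh38.p14. The annotation release and strand setting are not given in the sources used here.

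Genes were matched by Ensembl identifier to GENCODE release 44 (62700 of 62754 found). Whole reads were recovered from the deposited TPM and the length of the longest transcript of each gene less 1 base per exon, a length inferred from the values, with 100% of values whole within 0.01 read. Limits for 0 reads (3 reads) and the chi-square test cover counting error only. Levels were compared as log2(TPM + 1) with the SD over replicates, since 1 condition allows no test between groups. Reads of each gene with at least 15 in all were set against equal TPM (chi-square, p adjusted by Benjamini-Hochberg). On simulated reads, calls of changed genes were checked with and without median-of-ratios scaling, and false calls only with it. Because the recovered values are 1 condition, no count model was fitted. Computations ran in Python 3.11.15 with scipy 1.17.1, numpy 2.4.6 and pandas 2.3.3, and plots were drawn with matplotlib 3.10.9.

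The 10 genes and the gene lists were chosen with earlier results of these data known. Named were the 10 genes in every replicate and, per role of the lists, the highest gene, genes called differently at 1 TPM and genes with 0 reads. Other list genes, the neighbours and the sequences were chosen after their values were seen. Alternatives were other cutoffs, a pseudocount of 0.1, other gene lengths and scalings, and leaving out each replicate. Values of some genes of the partner list are not reported here.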

Additional observations from a re-analysis of the deposited data

How the results depend on the processing

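All 10 genes were at or above 1 TPM under every alternative run, with cutoffs of 0.5 and 2 TPM included, and 25 to 27 of the other NAD genes were. Reads of 8 genes departed from equal TPM as deposited, of 3 when protein-coding genes were scaled to a common sum, of 5 with median-of-ratios scaling, and of 1 to 7 when a replicate was left out, where 1 is the value without replicate 3. The median SD of log2(TPM + 1), 0.18 as deposited, was 0.11 with median-of-ratios scaling and between 0.0855 and 0.22 with a replicate left out, where 0.0855 is without replicate 3. Gene length moved the ratios and no replicate did: with canonical and merged lengths the log2 ratio of NAMPT to NAPRT was -0.51 and -2.19 (from -1.24 to -1.04 with a replicate left out), that of NAMPT to NMNAT1 was 3.04 and 0.91 (from 2.18 to 2.33), and the mitochondrial share of summed sirtuin TPM was 14.5% and 14.7% (from 18.04% to 19.04%). Canonical lengths moved the mean of 6 genes by more than 1 SD, merged lengths, added after the data were seen, that of 7, and scaling protein-coding genes to a common sum that of 5, all upward. The length alternatives include the scaling of each library back to its total. Under canonical lengths this lowered SIRT1, SIRT3 and NMNAT1, whose longest transcript is the canonical one. No scaling changed the order. The log2 ratio of SIRT2 to SIRT1 was -0.57 as deposited and 0.78 with canonical lengths. No paired analysis was possible because only 1 condition was measured, so no samples of different groups share a replicate number. Depth limits SIRT4, BST1 and HDAC10, whose calls at 1 TPM rest on at most 20 reads per library.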
